A study of Mus musculus with 44 samples.

Results

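Transcripts of the TGF-beta family, 10 genes in all, were followed through 8 sorted skeletal cell populations of the mouse, in total mRNA and in RNA pulled down with an antibody to N6-methyladenosine (m6A). The genes were the ligands Tgfb1, Tgfb2 and Tgfb3, the receptors Tgfbr1, Tgfbr2 and Tgfbr3, the signal carriers Smad2 and Smad3, the feedback inhibitor Smad7, and Gdf11, a related ligand. They were picked by symbol from the count table, and all 10 were found among its 46831 genes. Cells were sorted by surface antigens, after staining for CD45, Ter119 and Tie2 on blood and endothelial cells, from the epiphysis of C57BL/6J mice at postnatal day 3, and by the study's methods femurs of both sexes and of several litters were collected. The stem and progenitor populations were skeletal stem cells (SSC), progenitors of pre-bone cartilage and stroma (pBCSP) and bone cartilage stromal progenitors (BCSP). The downstream populations were pro-chondrogenic progenitors (PCP), the Thy subpopulation (THY), B-cell lymphocyte stromal progenitors (BLSP), the 6C3 subpopulation (6C3) and cells that express hepatic leukemia factor (HEC). WT populations had 2 input libraries (total mRNA) and 2 IP libraries (m6A antibody) each, 32 in all, and SSC, pBCSP and BCSP also had 2 input and 2 IP libraries each labelled Mettl3cko, 12 in all. By the study's methods the WT mice of the Mettl3 comparison carried Mettl3 fl/fl without Cre, and the deleted mice carried Mettl3 fl/fl with Cre driven by the Col2a1 promoter, which is active in cartilage and skeletal progenitor cells, while the genotype field of the labels read wild type for every library. Mettl3 encodes the catalytic subunit of the m6A writer complex.

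TGF-beta ligands are secreted in a latent form, held in the matrix by latent TGF-beta binding proteins and released by integrins and proteases. The active ligand binds TGFBR2, which recruits and phosphorylates TGFBR1, and TGFBR1 phosphorylates SMAD2 and SMAD3, which enter the nucleus with SMAD4. TGFBR3 (betaglycan) presents ligand, TGF-beta2 above all, to the signalling receptors, and SMAD7 blocks TGFBR1 and marks it for degradation. In the growth plate and in bone this pathway is known to hold back chondrocyte maturation and to act on osteoblast progenitors. GDF11 signals through activin receptors to the same SMAD2 and SMAD3.

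The transcripts whose m6A readout is described below held the sequence GGACT, the commonest core of the m6A consensus, at different densities. Over the 1 transcript taken for each gene, Tgfb1 held 2.30 GGACT per kilobase and Gdf11 1.97, against a median of 1.06 over 15410 mouse transcripts, while Tgfbr1 held 0.521 and Smad3 0.393. Tgfb3 (1.18), Tgfbr2 (1.24), Tgfbr3 (0.986), Tgfb2 (0.977), Smad7 (0.935) and Smad2 (0.742) lay nearer the median, and 92.3% of the transcripts held the sequence at least once. The stretches around 1 coding GGACT are shown for Tgfb3, whose IP values lay below input in all 8 populations, for Gdf11, whose IP values lay above it in SSC, and for Tgfbr1 and Tgfbr3, whose IP to input ratio differed between populations. Sequences were read from GRCm38 on the strand of the gene, 5′ to 3′, with GGACT in capitals: Tgfb3 in exon 7 of 7 (minus strand, motif at chr12:86057928-86057932, the stretch crossing an exon junction), Gdf11 in exon 3 of 3 (minus strand, chr10:128885333-128885361), Tgfbr1 in exon 6 of 9 (plus strand, chr4:47403441-47403469) and Tgfbr3 in exon 3 of 17 (minus strand, chr5:107214900-107214928).
Tgfb3: agcacggtgcttGGACTatacaacaccct
Gdf11: ggcttttggctgGGACTggatcatcgcac
Tgfbr1: attgcagacttgGGACTtgctgtgagaca
Tgfbr3: agtacagaccaaGGACTaggccagccgca
Tgfbr2 held its 10 GGACT outside the coding sequence, and none is shown. The counts are per gene, so no reading of m6A at any single one of these sites was possible.

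Promoters of the 3 members that were lower in stem and progenitor mRNA and had an entry in the RefSeq promoter table (GRCm38.p6) are shown over the 250 bases before the start of the transcript. Capitals mark GC boxes, GGGCGG or its reverse complement CCGCCC, searched on both strands. The stretches were chr7:25686752-25687001 for Tgfb1 (plus strand), chr4:47352972-47353221 for Tgfbr1 (plus strand) and chr9:116175364-116175613 for Tgfbr2 (minus strand).
Tgfb1: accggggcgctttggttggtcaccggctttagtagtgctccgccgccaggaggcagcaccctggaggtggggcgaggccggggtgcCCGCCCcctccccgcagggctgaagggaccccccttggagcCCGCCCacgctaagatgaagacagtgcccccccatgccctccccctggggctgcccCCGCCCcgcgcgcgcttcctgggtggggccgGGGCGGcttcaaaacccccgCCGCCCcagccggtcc
Tgfbr1: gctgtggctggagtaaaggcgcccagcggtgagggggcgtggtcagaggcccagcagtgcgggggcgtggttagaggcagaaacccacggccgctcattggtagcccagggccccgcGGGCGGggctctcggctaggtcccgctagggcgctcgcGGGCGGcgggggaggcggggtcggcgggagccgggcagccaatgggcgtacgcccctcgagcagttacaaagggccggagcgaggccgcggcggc
Tgfbr2: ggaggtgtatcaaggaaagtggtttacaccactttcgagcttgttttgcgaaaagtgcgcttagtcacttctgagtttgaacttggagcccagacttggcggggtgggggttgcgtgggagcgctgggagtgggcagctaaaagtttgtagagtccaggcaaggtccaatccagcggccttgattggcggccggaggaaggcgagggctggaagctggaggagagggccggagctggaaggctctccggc
Tgfb1 held 5 GC boxes at a GC content of 75.2%, and Tgfbr1 held 2 at 74.8%. A second Tgfbr1 entry (chr4:47385966-47386215), not shown, held 0 at 52.8%. Tgfbr2 held 0 at 58.4%, which says only that these letters are not in this window. Of 32851 promoters of the same length, 32.7% held a GC box, and the median GC content was 52.4%.

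Depth varied between libraries, and in WT input more downstream (19795666 to 44046651 counts) than in SSC, pBCSP and BCSP (29766972 to 32518936). Total counts ran from 19795666 to 44046651 over the 16 WT input libraries, from 16480027 to 35856651 over the 16 WT IP libraries, from 30050178 to 35325482 over the 6 Mettl3cko input libraries and from 22056571 to 33126857 over the 6 Mettl3cko IP libraries. Replicates correlated at 0.949 to 0.984 in WT input and at 0.846 to 0.952 in WT IP (Pearson, on a log2 scale of counts per gene scaled for library size, CPM), but at 0.624 to 0.663 in Mettl3cko IP, where 12685 to 14415 genes were detected against 16250 to 18714 in the WT IP libraries of the same populations. The deletion was not seen in the Mettl3 mRNA counts. The study itself reported the loss of Mettl3 by qRT-PCR and, in SSC, by western blot. It also reported less m6A by dot blot and in its m6A profiles of SSC, pBCSP and BCSP. Mettl3 was at 15.8 and 15.9 CPM in the WT SSC libraries and at 17 and 18.9 in those labelled Mettl3cko, at 12.5 and 16.6 against 23.0 and 23.5 in pBCSP, and at 18.6 and 20.3 against 16.7 and 18.4 in BCSP. Counts per gene do not show which part of the gene was read, so a deleted exon could have gone unseen, and these libraries are called by their label below. Cartilage markers (8 genes such as Col2a1 and Acan) summed to 94102 to 113644 CPM in WT stem and progenitor input libraries and to 7703 to 99317 CPM in downstream ones. Osteoblast markers (7 genes such as Col1a1 and Bglap) summed to 8032 to 15746 CPM and to 62781 to 142088 CPM, with no overlap between the groups in the sum. Col1a1 made up most of the downstream sum. Its means were 5003 CPM in SSC, 11390 in pBCSP and 6858 in BCSP, against 68923 (BLSP) to 133527 (6C3) downstream. Means of the other osteoblast genes overlapped between the groups. Bglap, for example, was at 27.4 CPM in SSC, 1.33 in pBCSP and 63.9 in BCSP, against 0.196 (HEC) to 32.4 (PCP) downstream. Hlf, which gives HEC its name, was at 3.25 and 5.19 CPM in HEC and at 1.89 to 7.59 over all downstream libraries, so it did not set HEC apart. Of markers of other cells, 6 erythroid genes summed to 0.726 to 5.83 CPM in stem and progenitor libraries and to 17.2 to 142.6 CPM in downstream ones, 7 other blood cell genes to 3.25 to 11.8 and 2.5 to 19.8 CPM (Ptprc at 0 in the former), 5 endothelial genes to 1.10 to 21.3 and 1.11 to 86.0 CPM, 6 muscle genes to 0.661 to 4.41 and 1.96 to 10.5 CPM (Myf5 at 0 in the former), and 3 platelet genes to 1.97 to 5.93 and 8.01 to 12.1 CPM. Among downstream populations the endothelial sum was high in PCP alone, at 81.8 and 86.0 CPM, and reached at most 9.47 CPM elsewhere (THY). The part of any of these cell types in the results below was not tested, and in bulk libraries a gene lower per cell and fewer cells that express it cannot be told apart.

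Among the ligands, Tgfb3 and Tgfb2 were high everywhere and Tgfb1 was low in stem and progenitor cells. Per kilobase of exon, mean WT input levels were 65.5 CPM for Tgfb3, 27.0 for Tgfb2 and 3.89 for Tgfb1. Tgfb1 (chr7:25687002-25705077, GRCm38, plus strand) was at 13.2 and 10.5 CPM in the 2 SSC libraries, at 13.3 and 9.41 in pBCSP and at 15.4 and 11.1 in BCSP. Downstream it was at 32.3 and 33.1 CPM in PCP, 10.9 and 25.0 in THY, 18.2 and 21.7 in BLSP, 16.8 and 34.4 in 6C3 and 21.7 and 27.2 in HEC. All but 1 downstream library, the lower one of THY, lay above the 6 stem and progenitor libraries, and no neighbours in the order of population means (PCP, 6C3, HEC, BLSP, THY, BCSP, SSC, pBCSP) were apart in their libraries. Tgfb2 (chr1:186622792-186705989, minus strand) was at 200.1 and 158.3 CPM in SSC, at 214.6 and 125.7 in pBCSP and at 175.0 and 114.3 in BCSP, and between 140.6 and 167.8 in the 10 downstream libraries. The downstream libraries thus fell inside the range of the others. Tgfb3 (chr12:86056745-86079041, minus strand) was at 103.0 and 160.8 CPM in BCSP, below the other 14 libraries, which ran from 180.7 to 314.8. In the order of its means (6C3, pBCSP, PCP, SSC, HEC, BLSP, THY, BCSP) only the last neighbours, THY and BCSP, did not overlap. Exons of Tgfb2 and Tgfb3 overlap antisense genes over 124 and 420 bases, and the strand setting of the counting is not given in the sources used here, so reads of both partners could not be told apart there.

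The receptors were lower in stem and progenitor cells than downstream, Tgfbr1 most. Per kilobase, Tgfbr2 averaged 14.5 CPM, Tgfbr1 8.02 and Tgfbr3 7.69. Tgfbr1 (chr4:47353222-47414931, plus strand), the type I receptor kinase, was at 10.6 and 27.9 CPM in SSC, at 14.5 and 54.6 in pBCSP and at 19.4 and 22.8 in BCSP. It was at 51.6 and 64.7 CPM in PCP, 66.4 and 65.8 in THY, 56.4 and 51.7 in BLSP, 72.8 and 104.8 in 6C3 and 63.5 and 91.2 in HEC. Only the second pBCSP library reached into the downstream range, and it lay far above its replicate. Tgfbr2 (chr9:116084293-116175360, minus strand), which binds the ligand, was at 118.1 and 96.5 CPM in SSC, at 94.7 and 128.0 in pBCSP and at 59.8 and 65.2 in BCSP. Downstream it ran from 112.1 to 167.3 CPM, highest in THY at 159.2 and 167.3. BCSP lay below every other population, and THY above every other population. Tgfbr3 (chr5:107106570-107289629, minus strand), the co-receptor, was at 31.9 and 44.6 CPM in SSC, 28.6 and 62.8 in pBCSP, 32 and 32.2 in BCSP and 38.4 to 87.0 downstream, with the second SSC and second pBCSP libraries inside the downstream range. It shares 297 exon bases with Gm43422 on the same strand.

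Of the 3 SMADs, Smad2 was the most even across libraries and Smad7 the highest per length. Per kilobase, Smad7 averaged 14.0 CPM, Smad3 13.1 and Smad2 3.34, and Gdf11 was the lowest of the 10 genes at 2.45. Smad7 was at 64.2 and 79.4 CPM in SSC, 61.8 and 52.0 in pBCSP, 116.3 and 91.4 in BCSP and 34.6 to 72.1 in the downstream libraries. BCSP stood above all the other libraries. Smad3 (chr9:63646767-63757994, minus strand) was at 102.6 and 93.3 CPM in SSC, 48.4 and 90.8 in pBCSP, 67.9 and 97.7 in BCSP and 39.7 to 77.0 downstream. Smad2 ran only from 23.4 to 33.8 CPM over the 16 libraries. Gdf11 (chr10:128882295-128891718, minus strand) was at 7.17 and 6.79 CPM in SSC, 8.99 and 13 in pBCSP, 7.46 and 10.004 in BCSP and 4.82 to 16.3 downstream. Its replicate gaps were as wide as the gaps between populations, and no neighbours in the order of its means were apart.

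**Figure D1:**
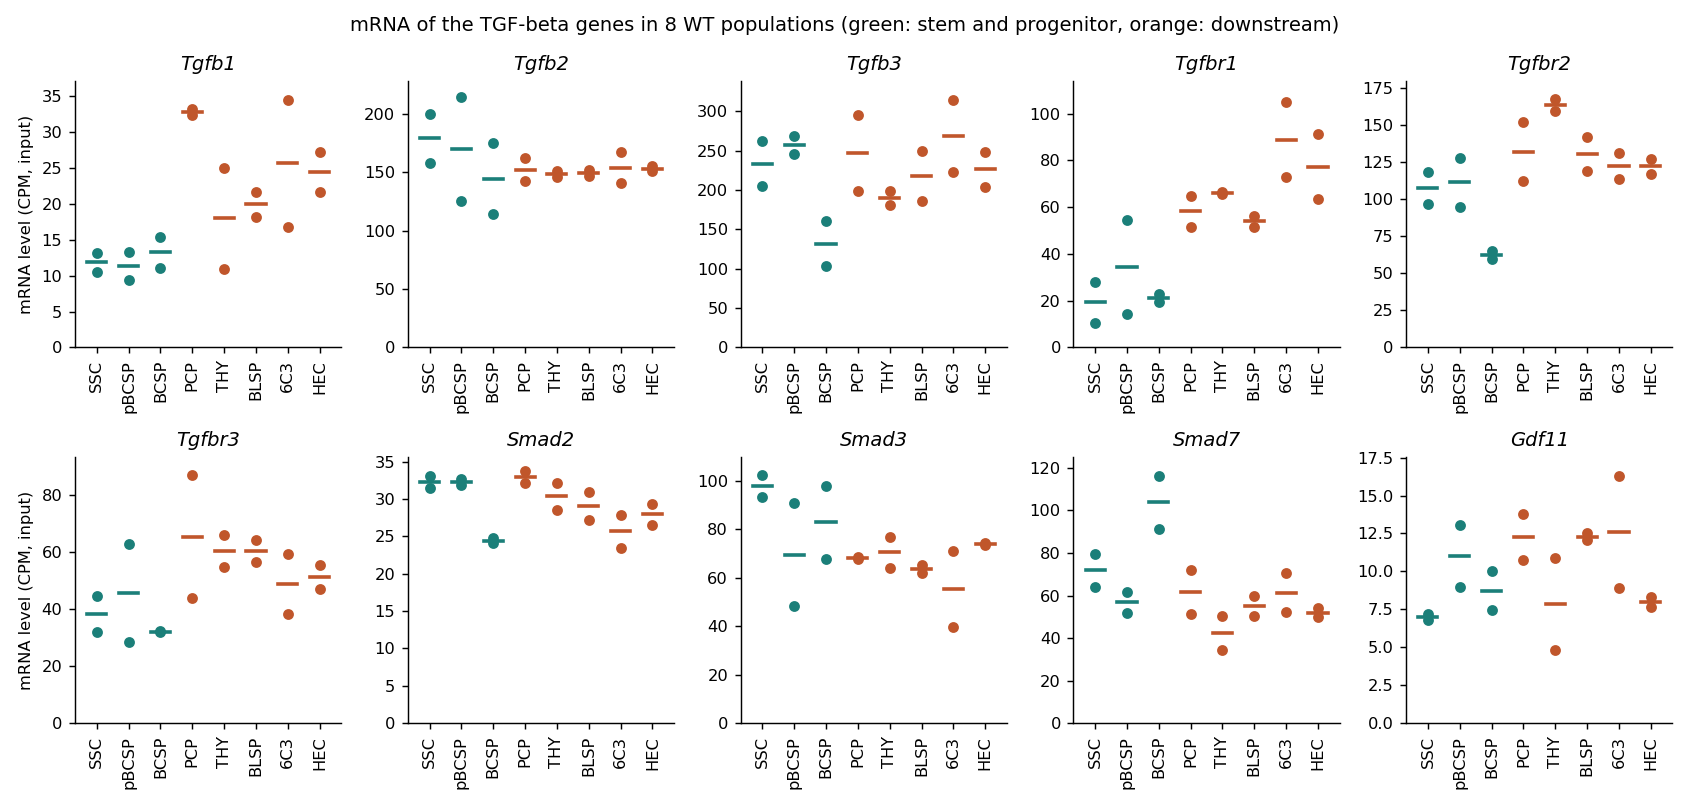
mRNA level (CPM, y axis) of each of the 10 genes in the 2 WT input libraries (points, with the mean as a bar) of each of 8 populations (x axis), stem and progenitor in green and downstream in orange. Tgfbr1 sits between 10.6 and 54.6 CPM in the former and between 51.6 and 104.8 CPM in the latter, while Smad2 stays between 23.4 and 33.8 CPM.

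Across the 8 populations, 4 of the 10 genes differed (edgeR quasi-likelihood test, Benjamini-Hochberg adjusted p under 0.05), while 40.1% of 20060 genes did. They were Tgfbr2 (adjusted p = 0.00181), Tgfbr1 (0.00676), Tgfb1 (0.0117) and Smad7 (0.0192). Without the first BCSP input library the call of Smad7 was lost (adjusted p = 0.146), and its adjusted p ran from 0.0133 up to that value when each library was left out. Tgfb3 (0.0752), Tgfbr3 (0.139), Gdf11 (0.264), Smad2 (0.362), Smad3 (0.484) and Tgfb2 (0.980) did not pass. Tgfb3 passed with scaling by library size alone (adjusted p = 0.0435), with no filter on low counts (0.00241) and in DESeq2 (0.0258), and Tgfbr3 passed with the first of these (0.0398) and the second (0.000412). On leaving out 1 library, Tgfb3 passed without the second BCSP, PCP or 6C3 input library and Tgfbr3 without the second pBCSP one. With 2 libraries per group these tests measure the spread between the study's 2 independent experiments.

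Stem and progenitor populations against downstream ones differed in the mRNA of 5 members. Tgfb1, Tgfbr1, Tgfbr2 and Tgfbr3 were lower in the former and Smad7 was higher, so 4 of 10 were called lower where 28.3% of all 20060 genes were, and 1 of 10 higher where 23.1% were. The median log2 fold change was −0.30 over the 10 genes and −0.11 over all genes, which moved to −0.21 with scaling by library size alone. Tgfbr1, at a median of 21.1 CPM over 6 libraries against 65.2 over 10, gave a log2 fold change of −1.57 ± 0.26 (SE, edgeR adjusted p = 0.000112). Tgfb1, at 12.1 against 23.3 CPM, gave −1.05 ± 0.20 (adjusted p = 0.000353). Tgfbr3, at 32.1 against 56.0 CPM, gave −0.65 ± 0.19 (adjusted p = 0.00787) and Tgfbr2, at 95.6 against 129.3 CPM, −0.64 ± 0.11 (adjusted p = 0.000152). The ranges of the groups overlapped for each of these genes. Smad7, at 71.8 against 51.7 CPM, gave 0.39 ± 0.12 (adjusted p = 0.0137), a call that was lost without the second SSC input library (log2 fold change 0.33, adjusted p = 0.0543) and with scaling by library size alone (0.30, adjusted p = 0.0549). The other 5 genes did not pass, with log2 fold changes of −0.28 ± 0.13 for Tgfb3, 0.24 ± 0.15 for Smad3, −0.33 ± 0.20 for Gdf11, −0.07 ± 0.10 for Smad2 and 0.03 ± 0.13 for Tgfb2. Without the second BCSP or the second 6C3 input library Tgfb3 passed (−0.40 and −0.32), as it did with scaling by library size alone (−0.37, adjusted p = 0.0289), and without the first pBCSP input library Smad3 passed (0.37).

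**Figure D2:**
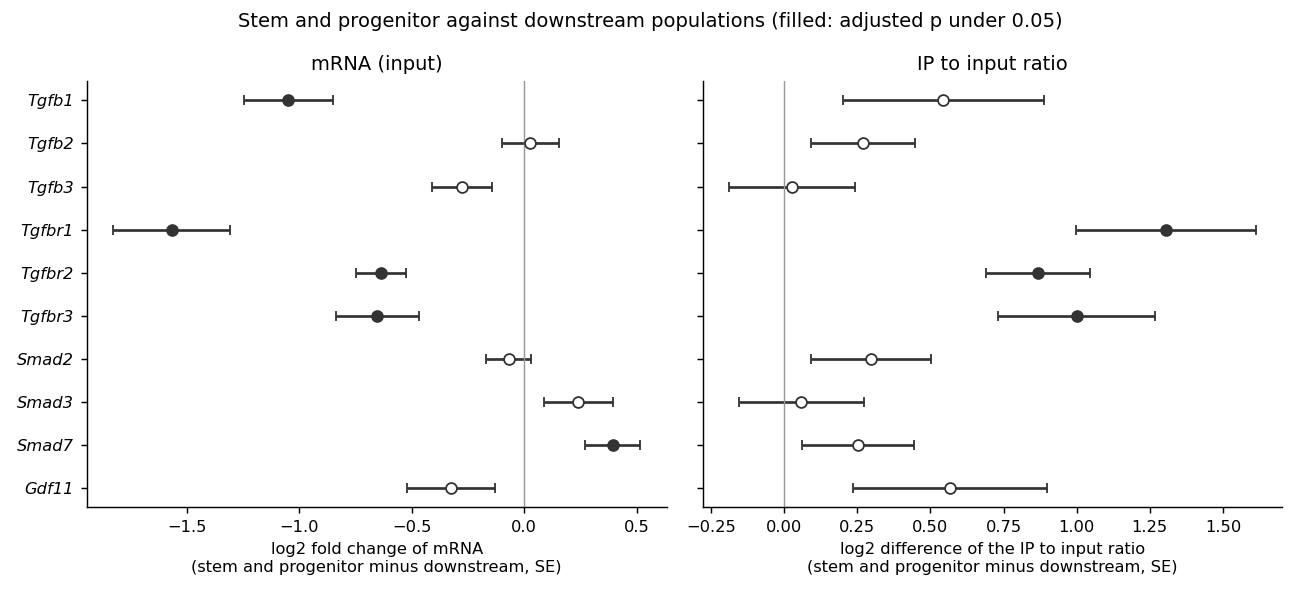
Difference between stem and progenitor (6 input and 6 IP libraries) and downstream populations (10 and 10) for the 10 genes, as the log2 fold change of mRNA (left) and the log2 difference of the IP to input ratio (right), with SE as bars and filled points where the adjusted p was under 0.05. Tgfbr1, Tgfbr2 and Tgfbr3 lie left of 0 in mRNA (−1.57, −0.64 and −0.65) and right of 0 in the ratio, which is computed from the same input libraries.

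Other genes of the pathway went in both directions. Of 70 listed genes, 68 were tested in the same contrast. In stem and progenitor cells 21 were higher and 26 lower, where 23.1% and 28.3% of all 20060 genes were. Genes of latency and activation were mostly lower, 11 of 15 against 3 higher, with a median log2 fold change of −1.29. Of those called lower, the integrin subunits Itgb6 and Itgb3 differed most, Itgb6 at low counts (0 to 21 in stem and progenitor libraries, 12 to 68 downstream). Itgb3 was at 2.40 to 8.74 CPM in stem and progenitor libraries and at 16 to 70.1 CPM downstream, with no overlap (−2.84 ± 0.21, edgeR adjusted p = 2.5e-08), and Itgb6 was at 0 to 0.691 CPM against 0.252 to 1.85 CPM (−3.54 ± 0.83, adjusted p = 0.00234). Of the secreted antagonists 2 of 4 were higher and 1 lower, and both higher ones, Wfikkn2 (4.89 to 26.2 against 1.42 to 6.37 CPM, 2.45 ± 0.27, adjusted p = 1.4e-06) and Wfikkn1 (0.379 to 2.51 against 0 to 0.767 CPM, 2.43 ± 0.59, adjusted p = 0.00279), encode proteins that bind myostatin and GDF11. Of 17 genes known to respond to TGF-beta, 8 were higher and 6 lower. Ctgf, a matricellular growth factor, was at 69.7 to 201.0 CPM in stem and progenitor libraries and at 8.81 to 53.3 CPM downstream (2.31 ± 0.27, adjusted p = 3.5e-06). Tagln, a smooth muscle actin-binding gene, had 0 counts in all 6 stem and progenitor libraries and a median of 0.554 CPM downstream, at least 5.22-fold higher with the floor set at 3 counts per library (0.106 CPM). Of the remaining lists, 4 of 15 cytoplasmic and nuclear effectors were higher and 4 lower, 2 of 4 activin receptors were lower, 3 of 10 tested activin, nodal and GDF ligands were higher and 2 lower, and 1 of 3 co-receptors and pseudoreceptors was higher. With the size factors of DESeq2 the whole list gave 22 higher and 26 lower, and with library size alone 18 and 28. The sum of the osteoblast markers, downstream mostly Col1a1, moved with this contrast without overlap, while the other osteoblast genes overlapped, as given above.

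In the antibody readout Smad7 lay above input and Tgfb3 below it in all 8 populations, at values given below. Within each population IP was set against input, and a gene was counted as m6A-tagged where its log2 fold change passed 1 at an unadjusted p under 0.05, the study's threshold. Smad7 was tagged in 6 of 8 populations and Gdf11 in SSC, and no other member was tagged in any, so tagged members numbered 2 of 10 in SSC, 1 of 10 in pBCSP, PCP, THY, 6C3 and HEC and 0 of 10 in BCSP and BLSP. Over all tested genes the tagged share stood at 10.4% in SSC, at 12% in pBCSP and at 6.67% in BCSP, and downstream it was 13.5% in HEC, 14.5% in 6C3, 12.4% in BLSP, 12.4% in THY and 10.6% in PCP, so that 0 to 2 of 10 members lay near the share of all genes. In BCSP and BLSP 2 members each were above input at an unadjusted p under 0.05 without reaching the fold threshold, and DESeq2 also left Smad7 untagged there. Tgfbr1 lay at the fold threshold without passing it in SSC (1.00 ± 0.53) and BCSP (1.00 ± 0.33). DESeq2 tagged in addition Tgfbr1 in BCSP (1.01) and Gdf11 in THY (1.16), as did edgeR with the size factors of DESeq2. Tgfbr1 also passed in SSC without the second input (1.88) or the first IP library (1.22), in pBCSP without the second input library (1.77) and in BCSP without the first IP library (1.25), and Tgfbr3 passed in pBCSP without the second input library (1.038). Shares past the same threshold in the other direction were 13.9% in SSC, 14.8% in pBCSP and 11.7% in BCSP, and then 14.2% in HEC, 17% in 6C3, 14.8% in BLSP, 15% in THY and 14.5% in PCP. There the members were Tgfb3 in all 8 populations and Tgfb1 in BLSP alone (−1.33 ± 0.29).

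Smad7 counts stood at 3702 and 4833 in the SSC IP libraries and at 1846 and 2244 in SSC input. The log2 fold change of IP against input was 1.42 ± 0.22 in SSC, 1.65 ± 0.18 in pBCSP, 1.26 ± 0.34 in PCP, 1.54 ± 0.23 in THY, 1.03 ± 0.26 in 6C3 and 1.29 ± 0.15 in HEC. In BCSP and BLSP it was 0.93 ± 0.25 and 0.86 ± 0.17, just short of the threshold. Every one of the 16 WT pairs of libraries gave a Smad7 ratio above 0, from 0.82 to 1.70. Without the first PCP IP library the value in PCP fell to 0.83, and without the second 6C3 input library the value in 6C3 fell to 0.81, both then untagged. Without the first BCSP input library, the second BCSP IP library or the first BLSP IP library, Smad7 passed there at 1.10, 1.13 and 1.01. Gdf11 had 491 and 504 counts in the SSC IP libraries against 206 and 192 in input, giving 1.71 ± 0.40 (edgeR adjusted p = 0.0568). Leaving out either SSC input library ended that call at about the same size (1.73 and 1.69). Elsewhere Gdf11 gave 0.10 to 1.08, and it passed on leaving out the first IP library of pBCSP (1.18), BCSP (1.12) or PCP (1.24), or the second THY input (1.79) or IP (1.40) library.

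Tgfb3, the ligand with the highest mRNA, was the member least recovered by the antibody. Its log2 fold change of IP against input was −1.97 ± 0.22 in SSC, with −2.03 ± 0.17 in pBCSP and −1.43 ± 0.29 in BCSP. Downstream it was −1.67 ± 0.16 in HEC, −1.91 ± 0.28 in 6C3, −1.78 ± 0.17 in BLSP, −1.45 ± 0.23 in THY and −1.77 ± 0.43 in PCP. Its adjusted p ran from 0.000275 in HEC to 0.0561 in BCSP. Tgfb2, the ligand with the next highest mRNA, stayed between −0.16 and 0.19. Smad3 lay between −0.31 and −0.99 in all 8 populations and Smad2 between −0.72 and 0.26. Among the effectors and regulators that are not members, 62 of 120 pairs of gene and population were tagged (51.7%, against 11.6% of 134544 pairs over all genes), and 4 of 15 genes were tagged in all 8 populations (26.7%, against 2.78% of 13471 genes). These 4, named after their values were seen, were Smad4, Ski, Smurf2 and Pmepa1. Pmepa1, a TGF-beta-induced inhibitor of the receptor signal, gave 1.56 to 2.90, and Smad4, the shared partner of the SMADs, 1.44 to 2.2. In the same list Strap (−1.50 to −1.10) and Tgif2 (−6.01 to −1.48) lay below input throughout. The share was worked out for this list alone, after its values were seen, and pairs of 1 gene are not independent. Of the other lists, no co-receptor and no secreted antagonist was tagged in any population, and of latency and activation genes 0 (BCSP) to 5 (pBCSP) of 15 were.

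**Figure D3:**
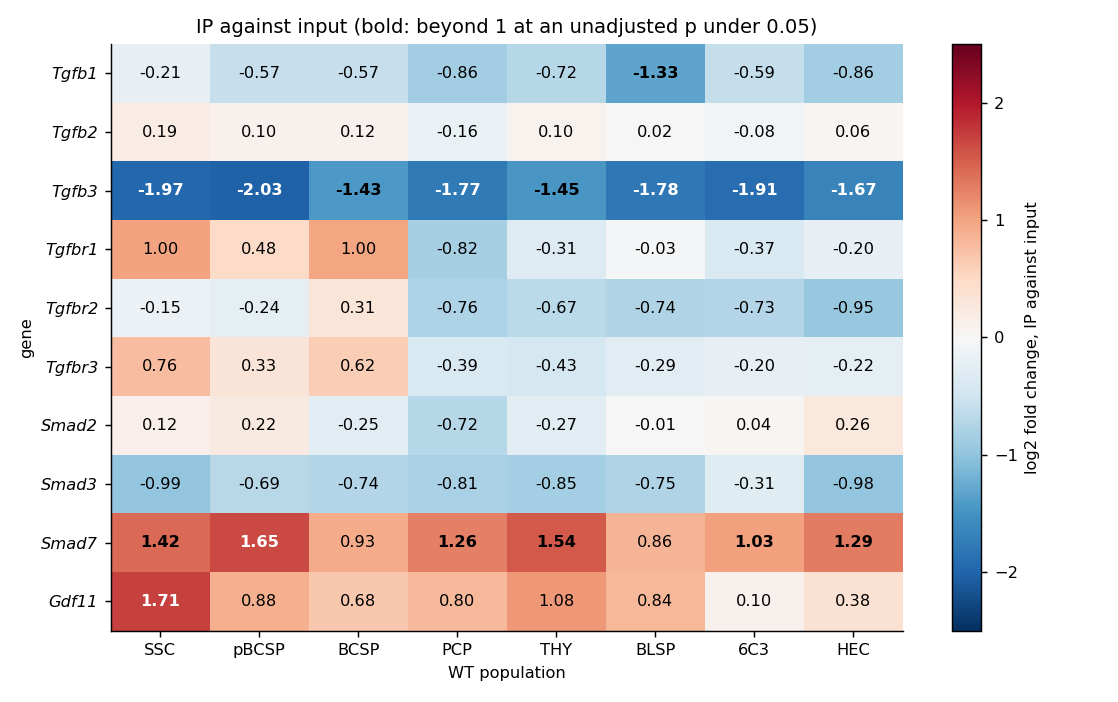
Log2 fold change of IP against input (colour and number) for the 10 genes (rows) in 8 WT populations (columns), each from 2 IP and 2 input libraries, in bold where it lay beyond 1 in either direction at an unadjusted p under 0.05. The Tgfb3 row runs from −2.03 to −1.43 and the Smad7 row from 0.86 to 1.65.

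The receptor transcripts had a higher IP to input ratio in stem and progenitor cells. Tgfbr1 lay at log2 ratios of 1.5 and 0.60 in the 2 pairs of SSC libraries, 1.21 and 0.10 in pBCSP and 0.78 and 1.09 in BCSP. It lay at −0.64 and −0.90 in PCP, −0.49 and −0.21 in THY, 0.28 and −0.30 in BLSP, 0.04 and −0.77 in 6C3 and 0.15 and −0.65 in HEC. Only the second pBCSP pair fell within the downstream range. Tgfbr2 lay at −0.60 and 0.09 in SSC, at −0.39 and −0.26 in pBCSP and at 0.27 and 0.28 in BCSP, and from −1.17 to −0.48 in the 10 downstream pairs. Tgfbr3 ran from −0.21 to 0.98 in the 6 stem and progenitor pairs and from −0.90 to 0.23 downstream. For both, 1 stem and progenitor pair reached into the downstream range, the first SSC pair for Tgfbr2 and the second pBCSP pair for Tgfbr3.

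The contrast of the ratio called 3 of 10 members higher in stem and progenitor cells, where 3.06% of 25365 genes were higher and 1.77% lower. The difference of the log2 ratio was 1.30 ± 0.31 for Tgfbr1 (SE, edgeR adjusted p = 0.0114), 0.87 ± 0.18 for Tgfbr2 (adjusted p = 0.00355) and 1.00 ± 0.27 for Tgfbr3 (adjusted p = 0.0265). The other 7 members lay between 0.03 (Tgfb3) and 0.57 (Gdf11) and did not pass, with a median of 0.42 over the 10 members and −0.08 over all genes, which moved to −0.24 with the size factors of DESeq2. The call of Tgfbr3 was lost on leaving out any 1 of 7 libraries, with differences of 0.83 to 1.00 and adjusted p of 0.0537 to 0.0821. These were the first input library of SSC, of pBCSP and of BCSP, the second IP library of SSC, of 6C3 and of HEC, and the first IP library of BCSP. It was also lost with the size factors of DESeq2 (0.84, adjusted p = 0.0700). Tgfbr1 and Tgfbr2 passed without each of the 32 libraries, with adjusted p up to 0.0480 and 0.0276. These fits did not pair libraries. By the study's description, each batch of sorted cells was divided between IP and input. That libraries of 1 number came from 1 batch was inferred, as the labels do not state it. With that pairing as a replicate block all 3 receptors passed in edgeR. The differences were 1.42 for Tgfbr1 (adjusted p = 1.6e-07), 0.87 for Tgfbr2 (7.5e-05) and 1.05 for Tgfbr3 (0.000129). The ratio is taken over the input libraries that gave the mRNA contrast. In those, median levels were 21.1 against 65.2 CPM for Tgfbr1, 95.6 against 129.3 for Tgfbr2 and 32.1 against 56.0 for Tgfbr3, and in IP they were 37.9 against 57.4, 78.5 against 79.7 and 54.9 against 46.5. The share of mitochondrial counts moved with the same contrast, at 1.56% to 2.92% in stem and progenitor IP libraries and 4.53% to 9.10% in downstream ones, and its part in the result was not tested.

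**Figure D4:**
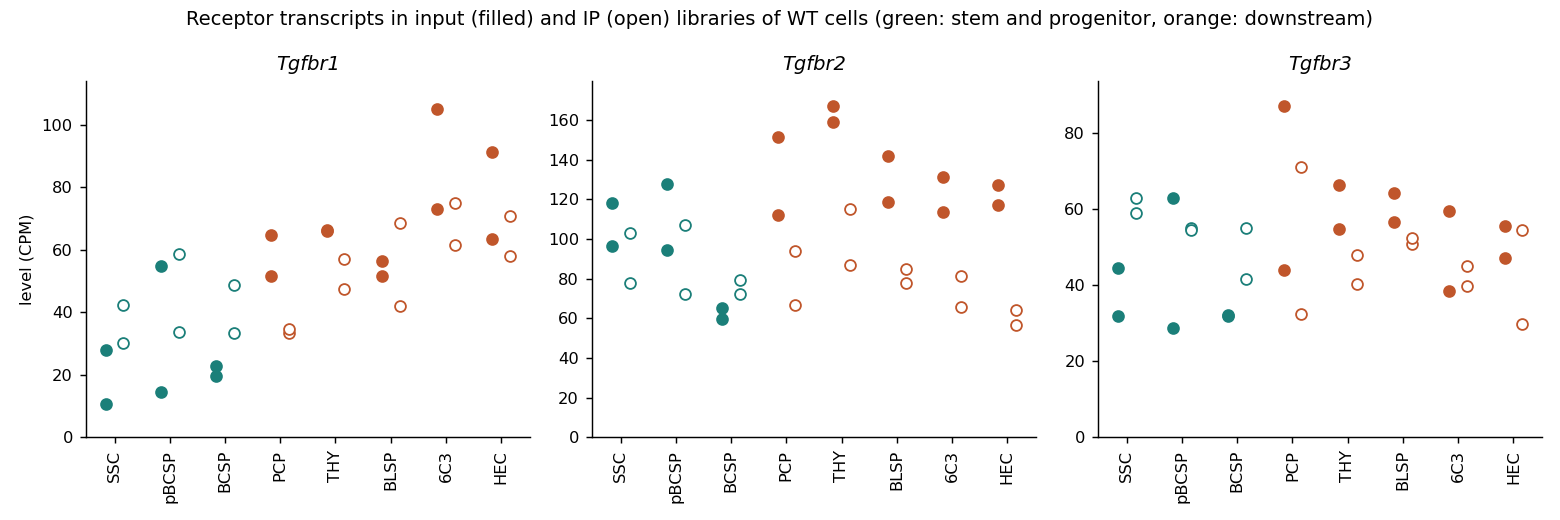
Level (CPM, y axis) of Tgfbr1, Tgfbr2 and Tgfbr3 in each WT input (filled) and IP (open) library of the 8 populations (x axis), stem and progenitor in green and downstream in orange. Most filled points of the downstream populations lie above their open points, while for Tgfbr1 and Tgfbr3 most open points of SSC, pBCSP and BCSP lie above the filled ones.

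Tested over all 8 populations without a direction, the ratio differed for 0 of 10 members in edgeR and 0 in DESeq2, against 0.485% of 25365 genes in edgeR. At an unadjusted p under 0.05 there were 2 members, Tgfbr2 (adjusted p = 0.225) and Tgfbr1 (adjusted p = 0.440). With the inferred pairing of IP and input by number as a replicate block, 3 members passed in edgeR, where 3.64% of genes did. They were Tgfbr1 (adjusted p = 6.8e-05), Tgfbr2 (0.00848) and Tgfbr3 (0.0284). In the fit of each population the same block also tagged Tgfbr1 in SSC (1.15) and Gdf11 in THY (1.16). Of the 69 tested genes of the pathway list, 7 had a higher and 1 a lower ratio in stem and progenitor cells, where 3.06% and 1.77% of 25365 genes did. Ltbp4, a latent TGF-beta binding protein, differed by 1.52 ± 0.30 (adjusted p = 0.00301), the integrin subunit Itgb5 by 1.35 ± 0.22 (adjusted p = 0.000411) and fibronectin, Fn1, by 0.89 ± 0.21 (adjusted p = 0.0138). Mstn, which encodes myostatin, differed by −4.87 ± 1.24 (adjusted p = 0.0192) at input levels of 0.139 to 18 CPM.

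In the libraries labelled Mettl3cko, Tgfb2 mRNA was higher and Smad7 mRNA lower over SSC, pBCSP and BCSP as a whole. Tgfb2 was at 294.5 and 256.1 CPM in SSC, at 235.3 and 219.8 in pBCSP and at 206.0 and 235.4 in BCSP, against 114.3 to 214.6 in the 6 WT libraries. Of these only the first BCSP library fell below the highest WT library. With population in the model the log2 fold change was 0.57 ± 0.15 (edgeR adjusted p = 0.0324). Smad7 was at 52.6 and 52.4 CPM in SSC, at 44.1 and 50.1 in pBCSP and at 40.6 and 51.3 in BCSP, against 52.0 to 116.3 in WT, and the groups overlapped only at the lowest WT library, the second of pBCSP. It fell by 0.62 ± 0.16 on the log2 scale (adjusted p = 0.0375). Over all 18655 genes 3.83% were higher and 2.64% lower, and members called were 1 of 10 in each direction. The call of Tgfb2 held without the first WT pBCSP, first WT BCSP or either Mettl3cko pBCSP library, and was lost without any other of the 12 (log2 fold change 0.49 to 0.59, adjusted p 0.0547 to 0.0954). The call of Smad7 held without the first WT SSC, second WT pBCSP or either Mettl3cko pBCSP library, and was lost without any other (fall by 0.50 to 0.64, adjusted p 0.0613 to 0.0909). Erythroid markers summed to 10.01 to 51.8 CPM in the Mettl3cko libraries and to 0.726 to 5.83 CPM in WT, and osteoblast markers to 7511 to 22252 against 8032 to 15746 CPM. Cartilage markers summed to 59449 to 117391 against 94102 to 113644 CPM, with no overlap in pBCSP (59449 to 68171 against 96631 to 99420). The part of these cells in the result was not tested.

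The other 8 members did not pass. Gdf11 was at 11.9 and 14.0 CPM in SSC, at 27.2 and 8.99 in pBCSP and at 15.1 and 8.35 in BCSP labelled Mettl3cko (0.69 ± 0.27, adjusted p = 0.146), and it passed without the second Mettl3cko pBCSP library (0.84, adjusted p = 0.0447). Tgfbr3 gave −0.63 ± 0.30 (adjusted p = 0.234) and passed with no filter on low counts (−0.64, adjusted p = 0.0106). The rest were Tgfbr1 at −0.60 ± 0.38 (0.400), Tgfb1 −0.43 ± 0.31 (0.469), Smad3 −0.31 ± 0.16 (0.295), Tgfb3 0.30 ± 0.18 (0.361), Smad2 −0.25 ± 0.12 (0.247) and Tgfbr2 0.11 ± 0.17 (0.804). The median was −0.28 over the 10 members and −0.04 over all genes. Of 66 tested pathway genes 2 were higher and 4 lower, where 3.83% and 2.64% of all 18655 genes were. All 4 lower ones and Tsc22d1 (0.36 ± 0.09, adjusted p = 0.0237) belong to the genes known to respond to TGF-beta. Ctgf was at 13 to 53.3 CPM against 69.7 to 201.0 in WT (−1.97 ± 0.23, adjusted p = 0.000693). Snai1, a repressor of epithelial genes, was at 23.0 to 65.8 against 84.0 to 120.8 CPM (−1.02 ± 0.22, adjusted p = 0.0126). Neither of these overlapped between the genotypes, nor did Emilin1, which encodes a matrix protein that keeps TGF-beta1 precursor from being processed, at 699.1 to 1483 against 305.2 to 601.8 CPM (1.32 ± 0.19, adjusted p = 0.00136). How many of all genes had mRNA levels without overlap between the genotypes was not counted.

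**Figure D5:**
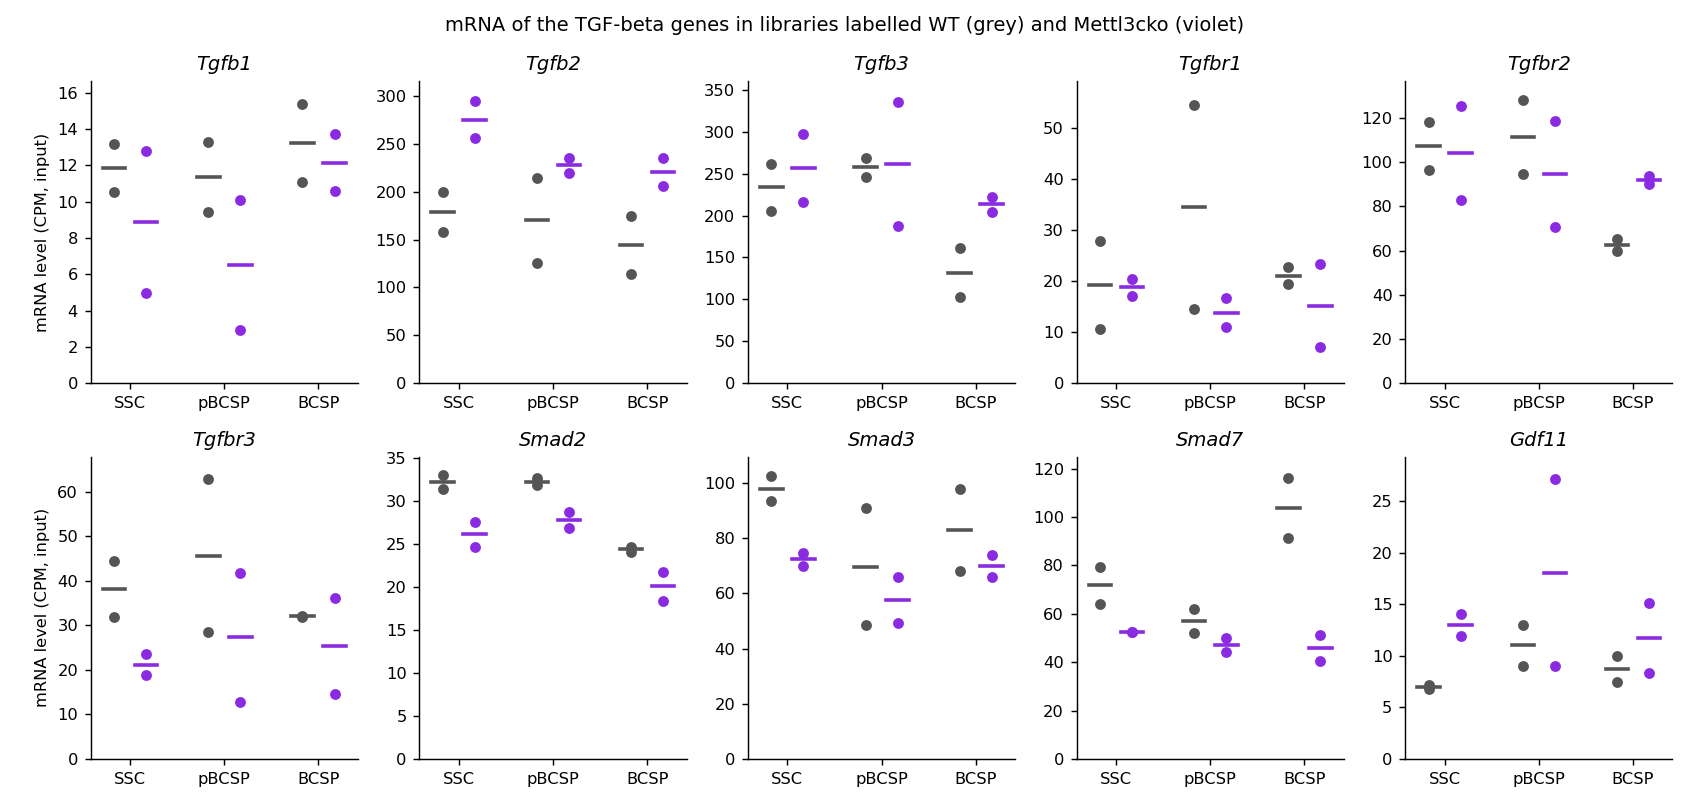
mRNA level (CPM, y axis) of the 10 genes in the 2 input libraries (points, with the mean as a bar) labelled WT (grey) or Mettl3cko (violet) of SSC, pBCSP and BCSP (x axis). For Tgfb2 the violet points lie between 206.0 and 294.5 and the grey ones between 114.3 and 214.6, and for Smad7 between 40.6 and 52.6 and between 52.0 and 116.3.

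Within single populations edgeR called 0 of 10 members in each of SSC, pBCSP and BCSP, and 0% of 16100, 16017 and 16322 genes. At an unadjusted p under 0.05 there were 14.7%, 8.37% and 13% of genes. In SSC these included Tgfb2 (0.63 ± 0.19), Tgfbr3 (−0.85 ± 0.27), Gdf11 (0.90 ± 0.33) and Smad3 (−0.43 ± 0.18), with edgeR adjusted p of 0.219 to 0.339. In BCSP they included Smad7 (−1.18 ± 0.25), Tgfb3 (0.69 ± 0.26), Tgfbr2 (0.55 ± 0.21) and Tgfb2 (0.61 ± 0.26), with adjusted p of 0.209 to 0.379, and in pBCSP no member. DESeq2 called Tgfb2 in SSC (adjusted p = 0.0412), where it called 4.43% of genes, and Smad7 in BCSP (adjusted p = 0.000819), where it called 3.55%, and no other member. Whether the genotype difference itself differed between the 3 populations was tested by an interaction, which edgeR called for 0% of 18655 genes and 0 members. At an unadjusted p under 0.05 there were 4.5% of genes and 1 member, Smad7 (adjusted p = 0.941), and DESeq2 called 41 genes and 0 members.

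The IP to input ratio of the libraries labelled Mettl3cko gave no call in edgeR, with IP replicates far apart. It called 0 of 10 members and 0% of genes in SSC, pBCSP and BCSP, where 14.5%, 11.9% and 10.3% of genes had an unadjusted p under 0.05. Among members these were Gdf11 in SSC (−2.49 ± 1.03, edgeR adjusted p = 0.333) and Smad7 in BCSP (0.99 ± 0.35, edgeR adjusted p = 0.422). Gdf11 had 106 and 225 IP counts in the SSC libraries labelled Mettl3cko, 839 and 0 in those of pBCSP, and 379 and 66 in those of BCSP, against 491 and 504, 445 and 918, and 269 and 556 in WT. Its log2 ratio lay at −1.16 and −0.69 in SSC, at 0.03 and −7.06 in pBCSP and at −0.32 and −1.60 in BCSP, and at 0.24 to 1.77 in the 6 WT pairs. The value of −7.06 rests on 0 counts in IP and on the prior count of 2. All 6 Mettl3cko pairs thus lay below all 6 WT pairs, as 1.39% of 20360 genes did. DESeq2 called Gdf11 in SSC (−2.47, adjusted p = 0.00402), where it called 10.2% of genes. edgeR called it there without the first or the second Mettl3cko SSC IP library (−2.19 and −2.87), and in pBCSP without the first Mettl3cko IP library, where the only IP library left held 0 counts. Without the first Mettl3cko SSC IP library it also called Smad2 (−4.21) and Smad3 (−2.45).

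A fit over all 3 populations together, chosen after seeing the data, called 0 members, while it called 0.643% of 20360 genes higher and 3.3% lower. At an unadjusted p under 0.05 there was also no member, and DESeq2 was not run on it. Gdf11 gave −1.69 ± 1.15 (edgeR adjusted p = 0.572), Tgfbr3 0.85 ± 0.47 (adjusted p = 0.400) and Smad7 0.29 ± 0.23 (adjusted p = 0.694), with a median of 0.07 over the 10 members and −0.39 over all genes. Smad7 lay above input in these libraries too, at log2 ratios of 1.03 to 2.13 in the 6 Mettl3cko pairs against 0.84 to 1.67 in WT. These ratios are relative to the other transcripts of a library, so a fall of m6A shared by all transcripts would not show in them. Whether Smad7 kept its m6A was thus not tested.

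For the 4 genes that differed in mRNA across the WT populations, the genes with the most similar profile were sought by Pearson correlation of log2 CPM over the 16 WT input libraries. Nearest to Tgfbr1 were Dpp8 (0.954), B230219D22Rik (0.951) and Tmx4 (0.946). Nearest to Tgfbr2 were Aldh3a2 (0.934), Pik3r4 (0.929) and Pcdhgc3 (0.928). Tgfb1 was nearest to 4933421O10Rik (0.914), Irx3 (0.911) and Sympk (0.908), and Smad7 to Gm4221 (0.946), Ndufa7 (0.931) and Trappc6a (0.918). The libraries share their populations, so these values describe a common contrast over 8 populations of 2 libraries.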

How the data were processed

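Super-low-input m6A sequencing (SLIM-seq) gave an input and an IP library for each of 22 samples of sorted mouse cells, 44 libraries in all. The authors trimmed reads with fastp 0.20.1, aligned them to GRCm38 with HISAT2 2.2.1, and deposited raw counts per gene from featureCounts 2.0.1. The annotation and strand setting are not given in the sources used here. Of 46959 entries, 128 with date-like names shared by several genes were dropped (at most 0.39% of a library's counts), which left 46831 genes. Beside the counts, the authors deposited 2 lists of their own comparison of Mettl3cko with WT SSC (DESeq2 fold changes and p-values, and changes of m6A with mRNA), which were not used.

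Groups were taken from the sample labels. Counts were tested with edgeR 4.0.16 in R 4.3.3 (TMM, filterByExpr, quasi-likelihood F test, Benjamini-Hochberg adjustment over all genes of a fit), at an adjusted p under 0.05. IP against input was called by the study's threshold, a log2 fold change above 1 at an unadjusted p under 0.05. SE is the log2 fold change over the root of F. Levels are CPM with TMM over the 44 libraries, and log2 levels and ratios carry a prior count of 2. Levels per kilobase used exon lengths of the GENCODE annotation supplied with GRCm38, in which 44687 genes had a single symbol, and not the authors' annotation. Total counts ran from 16480027 to 44046651 per library, and counting error was small beside the spread between replicates. Alternatives were DESeq2 1.42.0, its size factors in edgeR, library size alone, no filter, a replicate block, shared fits and leaving out each library. Scripts were tested on simulated data.

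By the study's description each batch of sorted cells was divided between IP and input. Libraries of 1 number were therefore taken as a pair, which the labels do not state. Their deviations from the group mean correlated at 0.044 to 0.483. Numbers shared between genotypes (−0.050 to 0.051) or over the 8 populations (−0.441 to 0.338) were not taken to pair libraries. The 3 pairs among WT SSC, pBCSP and BCSP lay at 0.177 to 0.338, within the range of IP with input. The main fits treated libraries of these populations as independent. Whether those of 1 number shared a batch was not tested, and if they did, p-values of contrasts over these populations may be too small. Replicates of every group differed by more than sampling noise. The members and the pathway and marker lists were chosen with earlier results of these data known. All members were described. Of the pathway list, the genes past the threshold with the 3 largest log2 fold changes in each direction were to be named, and the 3 nearest profiles of each member that differed across WT populations. A pathway gene that this rule names is not reported here. Pathway genes named for the share of populations in which they were tagged were chosen after their values were seen.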

Additional observations from a re-analysis of the deposited data

Results flagged for a closer look

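Stem and progenitor populations differed from downstream ones in the IP to input ratio of the 3 receptor transcripts. The difference itself was tested (edgeR quasi-likelihood F test). The log2 ratio of IP to input was higher in stem and progenitor cells by 1.30 for Tgfbr1, 0.87 for Tgfbr2 and 1.00 for Tgfbr3. The call of Tgfbr3 was lost without any 1 of 7 of the 32 libraries and with the size factors of DESeq2 (adjusted p = 0.0700), while those of Tgfbr1 and Tgfbr2 held under both kinds of setting. With IP and input of 1 number taken as a pair, an inferred replicate block, the calls of all 3 held (edgeR adjusted p = 0.000129 for Tgfbr3). The input libraries behind these ratios are the ones in which the same transcripts were lower.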

How the results depend on the processing

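With 2 libraries per group, counts of calls moved with the test far more than the members' values did. Values were followed singly for members past the threshold of a comparison and, where none passed, for the member with the smallest p. The level difference of each member, stem and progenitor minus downstream, was followed too. A tested value counted as unchanged where it kept its side of the threshold and, if it had one, its direction. A level difference counted as unchanged where it moved by less than the SD between replicates. Under settings other than leaving out a library, 233 of these were unchanged, 7 lost their call, 7 gained one and 1 turned. With 1 library left out, 377 were unchanged, 29 lost and 2 gained a call. Calls that other members gained stand beside their values and are not in these counts. The value that turned was the Smad2 level, whose stem and progenitor mean minus downstream mean was 0.018 (log2 CPM) and −0.157 with library size alone. The causes of these moves were not tested.

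Without the filter on low counts, genes called rose from 123 to 866 for the WT ratio across populations (members 0 to 1), from 0 to 1578 for Mettl3cko mRNA in single populations (members 0 to 1), from 1207 to 1973 over the 3 populations, from 0 to 80 for the difference between populations and from 0 to 695 for the Mettl3cko ratio. With DESeq2 these counts were 1018, 1454 (2 members), 2324, 41 and 3474 (1 member), and the stem and progenitor contrast of the ratio went from 1227 to 1960. At the study's threshold Mettl3cko mRNA gave 5708 genes and 7 members, summed over the 3 populations, and 1 fit over 12 libraries gave 19. At an adjusted p, pairs of gene and population beyond the fold threshold went from 15581 to 9336, and Smad7 in PCP, Gdf11 in SSC and Tgfb3 in BCSP were lost. Smad7 in 6C3 was lost without the filter (0.93) and in 1 fit over 32 libraries (0.95), where Tgfbr1 in BCSP passed (1.05), as with library size alone (1.00). The fit of the Mettl3cko ratio over the 3 populations, chosen after seeing the data, called 803 genes, and no library was left out of it.

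With IP and input paired as a replicate block, the WT ratio across populations called 923 genes and 3 members. Blocks on numbers that only share a name gave 334 genes for Mettl3cko mRNA in single populations and 2 for the difference between populations, and the block passed Tgfbr3 over the 3 populations (−0.71, adjusted p = 0.0430). The block changed no other count by more than 1.5 times.

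With each library left out in turn, genes called ran from 66 to 451 for the WT ratio across populations, from 842 to 1926 for its stem and progenitor contrast, from 0 to 407 for Mettl3cko mRNA in single populations, from 670 to 1313 over the 3 populations (members 0 to 3), from 0 to 6 for the difference between populations and from 0 to 4928 for the Mettl3cko ratio (members 0 to 3).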
